A study of Homo sapiens with 16 samples.

Results

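The step from immortalized to transformed cells was examined under moderate hypoxia (3% oxygen) in the isogenic BJ fibroblast model, in which human foreskin fibroblasts were carried through successive stages by adding defined genes. The immortalized line carries hTERT (labelled BJ hTERT+), and the transformed line carries hTERT and SV40 (labelled BJ hTERT+ SV40+), so telomerase is shared and the viral oncogene is what the labels add between them. The members are the 4 libraries of these 2 groups at 3% oxygen, of 16 libraries in all, assigned to groups by their labels: 2 immortalized libraries (a and b) and 2 transformed libraries (a and b). The same 2 lines at atmospheric oxygen gave 4 more libraries, which are used here for comparison, and the primary (untransfected BJ) and metastasizing (BJ hTERT+ SV40+ Ras-G12V) stages entered the model fit. All cultures were kept for 6 passages in 5% CO2, on duplicate plates grown side by side. Each stage is represented by 1 cell line, so the addition of SV40 and any other difference between these particular lines cannot be told apart, and p-values measure only the spread between parallel plates. Expression is in TPM, a length-corrected share of a library's RNA, summed over the transcripts of each protein-coding gene. Changes are differences of log2(TPM + 0.5), transformed minus immortalized, which understate the change of genes near or below 0.5 TPM.

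Large-T, the oncoprotein encoded by the SV40 early region, binds the retinoblastoma (RB) family and p53. RB proteins hold the E2F transcription factors inactive until a cell commits to division, and free E2F drives genes of DNA replication and, through later factors, of mitosis. p53 is a stress-activated transcription factor whose targets arrest the cycle, repair DNA or promote cell death. Fibroblasts are known for making the collagen-rich matrix of connective tissue, for contractile stress fibres and for cytokine secretion, and low oxygen stabilizes HIF1, which raises genes of glycolysis and angiogenesis.

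Protein-coding genes entered the test where 1 of the 2 groups averaged 1 TPM or more, which 12396 did, and 2024 (16.3%) differed at an adjusted p under 0.01 and by more than 2-fold, and these are called changed below. Of them 1110 (8.95% of the genes tested) were higher and 914 (7.37%) were lower in transformed cells. The median log2 fold change over all tested genes was 0.11. With libraries rescaled by median ratios the calls were 954 higher and 1070 lower, and with quantile normalization 939 higher and 1086 lower, so which direction held more calls depended on the scaling. In all 2024 called genes both libraries of one group lay above both of the other, a separation that 76.1% of all tested genes showed. As a check of the labels, TERT, the catalytic subunit of telomerase on chromosome 5 from 1253262 to 1295183 of GRCh37, was at 0.0370 and 0.543 TPM in the primary libraries at 3% oxygen, 143 and 128 TPM in the immortalized and 75.1 and 78.0 TPM in the transformed libraries. The summed level of 10 fibroblast markers was 11920 to 12143 TPM in the immortalized and 3832 to 4629 TPM in the transformed libraries, with 9 of the 10 markers at 1 TPM or more after the step, and the summed markers of epithelial, endothelial, blood, melanocyte and muscle cells stayed between 0.272 and 14.3 TPM in these 4 libraries. Mitochondrially encoded genes held 0.851% and 2.60% of the TPM in the immortalized and 1.77% and 1.27% in the transformed libraries. In bulk RNA, fewer cells of a kind and less RNA per cell cannot be told apart.

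Inflammatory and antiviral genes were among those in which the 2 transformed libraries stood apart from each other. Replicate b exceeded replicate a by more than 2-fold in 361 of 12396 genes (2.91%) and fell short of it by that much in 168 (1.36%). Of 39 tested interferon-stimulated genes, 36 were more than 2-fold higher in replicate b, with a median difference of 2.58 on the log2 scale, and so were 16 of 21 chemokines and cytokines (median 1.85), 6 of 14 genes of the NF-kB pathway, 5 of 11 class I antigen presentation genes, 3 of 14 complement genes and 3 of 25 matrix proteases and inhibitors. Most of the 361 genes were in none of these lists. By contrast, 1 of 25 collagen chains and none of the 45 replication and 50 mitosis genes did so. Between the 2 immortalized libraries only 1 of the 39 interferon-stimulated genes and none of the 21 chemokines and cytokines differed by more than 2-fold in either direction. Between the 2 transformed libraries the marker sums ranged from 1.87 to 2.12 TPM for blood, 0.774 to 1.03 TPM for endothelial, 5.75 to 10.6 TPM for melanocyte and 1.08 to 2.88 TPM for muscle cells, and their part in these gaps was not tested. The counts of the inflammatory, interferon and class I lists at 3% oxygen are therefore given with and without each transformed library.

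**Figure D1:**
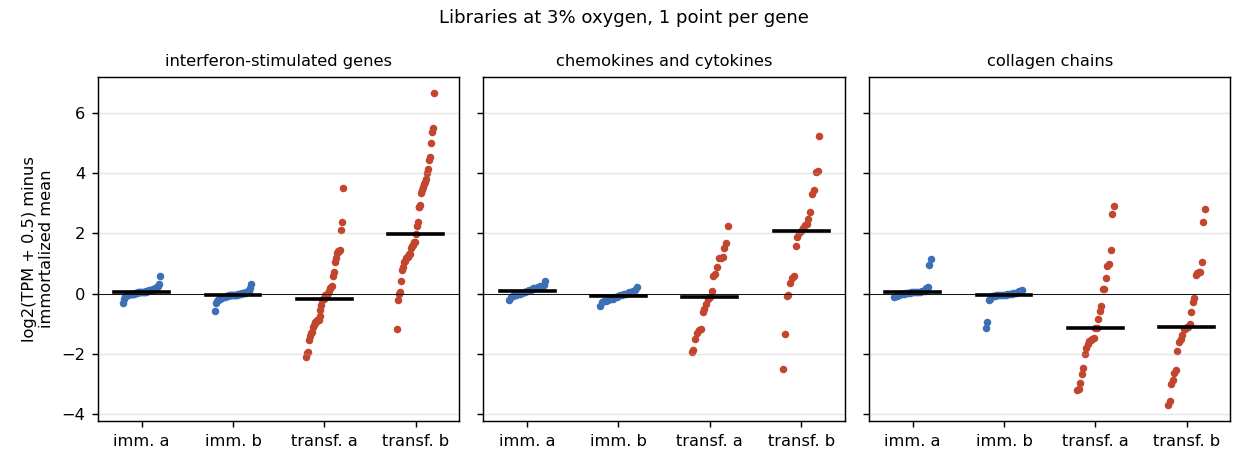
Level of each gene in each of the 4 libraries at 3% oxygen, as log2(TPM + 0.5) minus the mean of the 2 immortalized libraries, for 3 gene lists (1 point per gene, blue for immortalized, red for transformed, black bar for the median). The interferon-stimulated genes have medians of -0.17 in transformed replicate a and 1.97 in replicate b and the chemokines and cytokines -0.10 and 2.08, whereas the collagen chains have -1.14 and -1.11.

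The largest rises were of genes at or near 0 TPM in immortalized cells. BEX1, an adaptor protein best known from neurons, was at 0.1004 and 0 TPM in the immortalized and 443 and 406 TPM in the transformed libraries. FBN2, which encodes the extracellular fibril protein fibrillin-2, was at 0 and 0.0162 TPM in the immortalized and 143 and 104 TPM in the transformed libraries. CDKN2A, the locus of the CDK inhibitor p16INK4a and of ARF, was listed at 0 and 0 TPM in the immortalized libraries and at 85.2 and 97.4 TPM in the transformed ones. All 3 were thus almost absent before the step, and the adjusted p was 4.87e-10, 6.58e-09 and 1.10e-07, respectively (limma with Benjamini-Hochberg adjustment, as for every adjusted p here). No fold is given for CDKN2A, since it was listed at 0 on one side. EEF1A2, the tissue-restricted form of elongation factor 1-alpha, was at 0.906 and 0.455 TPM in the immortalized and 126 and 123 TPM in the transformed libraries, a log2 fold change of 6.75 ± 0.33 (SE, adjusted p = 1.12e-07). GFRA1, a co-receptor for glial cell line-derived neurotrophic factor, changed from 0.721 and 0.581 to 81.6 and 61.6 TPM (5.96 ± 0.20). MCAM, an adhesion molecule of melanoma and vascular cells, changed from 0.604 and 0.708 to 61.8 and 65.0 TPM (5.79 ± 0.15). ANXA3, ASB5, AMPH, PLPP2, EDIL3 and SPESP1 completed the 12 largest rises, and each was below 1 TPM in both immortalized libraries. All 12 were also called higher at atmospheric oxygen. The difference between the oxygen levels was called for ANXA3 alone among them, whose log2 fold change was 3.33 at atmospheric oxygen and 6.15 at 3%, a difference of 2.83 ± 0.55 (SE, adjusted p = 0.00289).

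The largest falls were of genes that immortalized cells expressed well above 1 TPM. SLC38A11, a member of the amino acid transporter family SLC38 on chromosome 2 from 165750864 to 165812035 of GRCh37, was at 299.7 and 324 TPM in the immortalized and 0.193 and 0.0489 TPM in the transformed libraries, a log2 fold change of -8.98 ± 0.17 (SE, adjusted p = 2.02e-10). PDGFRA, the receptor for platelet-derived growth factor that marks fibroblasts and their precursors, was at 112 and 106 TPM in the immortalized and 1.03 and 0.925 TPM in the transformed libraries (-6.21 ± 0.22). CRABP2, which carries retinoic acid to its nuclear receptor, was at 1030.1 and 1029 TPM in the immortalized and 12.7 and 16.2 TPM in the transformed libraries (-6.12 ± 0.31). Neither group's range came near the other's in these 3 genes. CEMIP, which depolymerizes hyaluronan, was at 443 and 375 TPM in the immortalized and 4.15 and 4.51 TPM in the transformed libraries. SULF1, an extracellular sulfatase that trims heparan sulfate, was at 318 and 319 TPM in the immortalized and 5.64 and 3.92 TPM in the transformed libraries. MXRA5, a matrix-associated protein, was at 178 and 138 TPM in the immortalized and 0.918 and 1.21 TPM in the transformed libraries. The list of 12 was completed by C5orf46, KRBOX1, SPHKAP, TCIM, GALNT5 and IGFBP3, of which KRBOX1 was listed at 0 in both transformed libraries.

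**Figure D2:**
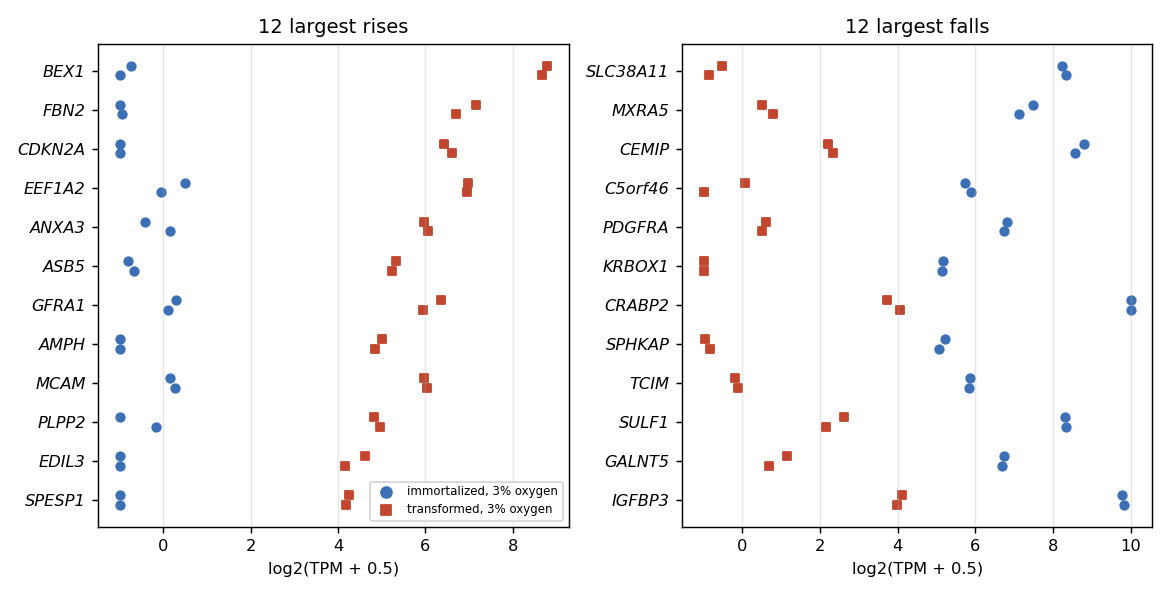
The 12 largest rises (left) and 12 largest falls (right) at 3% oxygen, as log2(TPM + 0.5) in each of the 4 libraries (circles immortalized, squares transformed, replicate a drawn above replicate b). A value of -1 stands for a gene listed at 0, and in all 24 genes the 2 groups lie far outside each other's spread.

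The promoters below belong to called genes of DNA replication and mitosis and are shown as the promoters of genes that rose in lists of E2F and DREAM targets. Each is the 250 bases before the RefSeq transcription start in GRCh38.p14, read 5′ to 3′ on the gene's own strand, and capitals mark CCAAT or its reverse complement ATTGG, the box bound by NF-Y. GINS1 (chr20:25407423-25407672, plus strand) encodes a subunit of the replicative helicase, AURKB (chr17:8210226-8210475, minus strand) the chromosome-passenger kinase Aurora B, and MCM10 (chr10:13161308-13161557, plus strand) a DNA replication factor.
GINS1: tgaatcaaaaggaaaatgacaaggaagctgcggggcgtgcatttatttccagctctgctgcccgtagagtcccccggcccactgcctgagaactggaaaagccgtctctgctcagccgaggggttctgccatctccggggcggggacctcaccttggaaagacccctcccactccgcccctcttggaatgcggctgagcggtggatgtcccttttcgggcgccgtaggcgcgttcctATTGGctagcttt
AURKB: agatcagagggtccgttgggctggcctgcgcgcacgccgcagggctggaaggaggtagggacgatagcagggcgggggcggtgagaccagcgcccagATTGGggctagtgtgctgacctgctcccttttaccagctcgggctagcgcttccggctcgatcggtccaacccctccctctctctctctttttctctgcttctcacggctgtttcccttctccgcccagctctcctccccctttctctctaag
MCM10: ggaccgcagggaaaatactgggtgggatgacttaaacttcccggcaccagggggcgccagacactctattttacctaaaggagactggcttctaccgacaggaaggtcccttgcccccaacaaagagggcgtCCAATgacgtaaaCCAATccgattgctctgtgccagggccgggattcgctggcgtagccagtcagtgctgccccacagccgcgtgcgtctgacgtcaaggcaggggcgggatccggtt
Both strands were searched for CCAAT, for 4 E2F motifs (TTCCCGC or TTCGCGC or TTGCCGC or TTGGCGC) and for 2 forms of the cell cycle homology region (TTTGAA or TTCGAA), without correction for overlap between motifs. These 3 windows held CCAAT alone. The window of MCM2 held none of the motifs, and UBE2C was not matched to a promoter. Over the 10048 tested genes with a RefSeq promoter, 41.8% held CCAAT, 21.7% an E2F motif and 13.9% a cell cycle homology region. The share with an E2F motif was 60.5% in the replication list (38 promoters), and the mitosis list (43 promoters) held CCAAT in 76.7% and the homology region in 55.8%. Genes called higher at 3% oxygen (895 promoters) were close to all genes, with 40.9%, 22.2% and 12.2%, and genes called lower (699 promoters) had 39.2%, 16.0% and 22.7%. A match is a description of letters and says nothing on binding.

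Few proliferation genes were called at 3% oxygen. E2F1, the activator that RB restrains, rose from 22.9 and 21.3 to 77.8 and 95.9 TPM, a log2 fold change of 1.94 ± 0.15 (SE, adjusted p = 3.01e-06). MYBL2, an E2F target that activates mitotic genes, rose from 35.1 and 35.6 to 142 and 155 TPM (2.06 ± 0.14), and RBL2, which encodes the RB relative p130, rose from 26.4 and 27.4 to 64.6 and 54.0 TPM (1.12 ± 0.20). These were the only 3 called of 18 RB and E2F factors, 16.3% of all genes being called. RB1 itself was at 63.1 and 59.0 TPM in the immortalized and 79.1 and 71.0 TPM in the transformed libraries and RBL1, encoding p107, at 20.7 and 20.9 TPM in the immortalized and 39.6 and 36.5 TPM in the transformed libraries, and neither was called. Of 45 genes of DNA replication and nucleotide supply, MCM2 (54.3 and 51.0 to 110.2 and 119.9 TPM), GINS1 (14.0 and 14.6 to 32.7 and 30.2 TPM) and MCM10 (11.0 and 11.4 to 25.2 and 22.3 TPM) rose and none fell, with a list median of 0.53 against 0.11 over all genes. Of 50 mitosis genes, UBE2C, which charges the anaphase-promoting complex with ubiquitin (153 and 153 to 351 and 351 TPM), and AURKB (82.9 and 74.9 to 168 and 164 TPM) rose and none fell, with a list median of 0.33. None of 24 homologous recombination and Fanconi anaemia genes was called by limma, with 13 at an unadjusted p under 0.05 (median 0.36). MKI67, the proliferation antigen Ki-67, was at 110.2 and 82.8 TPM in the immortalized and 76.5 and 53.2 TPM in the transformed libraries (adjusted p = 0.0732). Without immortalized replicate a 5 replication genes were called higher, without immortalized replicate b 1 mitosis gene was, and without immortalized or transformed replicate a 1 recombination gene was. Rescaling by median ratios put AURKB (0.97) and MCM10 (0.96) below the 2-fold limit.

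The small counts at 3% oxygen contrasted with the same step at atmospheric oxygen, where 38 of 45 replication genes, 37 of 50 mitosis genes and 15 of 24 recombination genes were called higher, 13.2% of all genes being called higher there. The difference between the 2 steps was called, lower at 3% oxygen, in 10 replication, 15 mitosis and 8 recombination genes, against 5.83% of the 12715 genes tested for it. With 1 of the 8 libraries left out the mitosis count was 9 to 15, and it was 9 without immortalized replicate a or transformed replicate b at 3% oxygen and without immortalized replicate a or transformed replicate b at atmospheric oxygen. The levels show where the gap lay. The median level of the mitosis genes was 42.2 TPM in immortalized cells at atmospheric and 80.1 TPM at 3% oxygen, and 108 TPM in transformed cells at atmospheric and 95.8 TPM at 3% oxygen. For the replication genes the corresponding medians were 23.97, 42.6, 68.4 and 59.6 TPM. The immortalized cells thus had the higher level at 3% oxygen and the transformed cells did not. MYBL2 differed at both stages, at 19.7 and 25.9 TPM in immortalized and 234 and 241 TPM in transformed cells at atmospheric oxygen, with a step of 2.06 at 3% and 3.37 at atmospheric oxygen and a difference of -1.31 ± 0.20 (SE, adjusted p = 0.000841).

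Inhibitors and drivers of the G1 phase changed in both directions. CDKN2B, encoding the CDK inhibitor p15INK4b beside CDKN2A, was listed at 0 and 0 TPM in immortalized and at 11.9 and 11.9 TPM in transformed cells (adjusted p = 9.74e-07). CDKN1C, encoding p57KIP2, was at 0 and 0.0587 TPM in the immortalized and 1.74 and 1.77 TPM in the transformed libraries, a low level even after the step. CCND1, the G1 cyclin D1, fell from 259 and 253 to 66.5 and 63.1 TPM (-1.97 ± 0.15). These genes and CDKN2A were the 4 called of 15 tested, where 16.3% of all genes were called. CDKN1A, the p53-induced inhibitor p21, was at 161 and 166 TPM in the immortalized and 67.0 and 109 TPM in the transformed libraries and was not called (-0.93, adjusted p = 0.0431), whereas its step at atmospheric oxygen was -2.49.

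CDKN2A, CDKN2B and their neighbour MTAP, an enzyme of methionine salvage, lie together on chromosome 9 of GRCh37, with CDKN2A from 21967751 to 21995300, CDKN2B from 22002902 to 22009304 and MTAP from 21802635 to 21937650. Primary cells at 3% oxygen had 0.461 and 2.05 TPM of CDKN2A and 2.16 and 2.49 TPM of CDKN2B, so the immortalized line was below the stage before it as well as below the stage after it. At atmospheric oxygen the immortalized libraries were at 0.132 and 0 TPM of CDKN2A. Metastasizing libraries at 3% oxygen had 74.9 and 99.2 TPM. MTAP as a whole was expressed in all 4 libraries (63.1 and 65.3 TPM in the immortalized and 39.6 and 33.9 TPM in the transformed libraries), but its transcript MTAP-209 was listed at 0 and 0.300 TPM in the immortalized and at 6.75 and 6.38 TPM in the transformed libraries. It was at 8.42 and 8.07 TPM in primary cells at 3% oxygen. DMRTA1, from 22446823 to 22455739 on the same chromosome, went the other way. Its levels were 2.68 and 2.40 TPM in the immortalized and 0.472 and 0.336 TPM in the transformed libraries (-1.75 ± 0.21, adjusted p = 6.34e-05). Primary cells at 3% oxygen had 0 and 0 TPM of DMRTA1. MTAP and DMRTA1 were picked after the values were seen. DNA copy number was not measured in these libraries.

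p53 targets fell more often than they rose. Of 39 tested, 7 were called lower and 2 higher, against 7.37% and 8.95% of all genes, and the list median was -0.37. PERP, a desmosomal protein of p53-dependent cell death, fell from 86.1 and 85.0 to 4.18 and 4.80 TPM, a log2 fold change of -4.11 ± 0.14 (SE, adjusted p = 8.30e-09). FAS, the death receptor, fell from 51.1 and 50.5 to 2.10 and 4.49 TPM, and KITLG, the ligand of the receptor KIT, from 68.7 and 63.9 to 4.69 and 4.88 TPM. SPATA18, EDA2R, ZMAT3 and TP53I3 also fell, by 1.25 to 3.12 on the log2 scale. SESN2, a sestrin that restrains mTORC1, rose from 5.07 and 5.10 to 23.1 and 20.2 TPM, and PMAIP1, the BH3-only protein NOXA, from 45.3 and 41.5 to 85.4 and 133 TPM. Without transformed replicate a 4 of the list were called higher, and without replicate b 1 was. Without transformed replicate b the log2 fold change of PMAIP1 was 0.97 and it was no longer called. MDM2, the ubiquitin ligase that p53 induces, was at 315 and 32.7 TPM in the immortalized and 22.8 and 20.6 TPM in the transformed libraries, and with this spread between the immortalized replicates it was not called (adjusted p = 0.0921).

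Genes of the extracellular matrix fell as a broad group. Of 25 collagen chains 12 were called lower and 4 higher (median -1.33), and of 28 other matrix proteins 14 were called lower and 2 higher (median -1.38), where 7.37% of all genes were called lower. The collagen counts were smaller with any 1 of the 4 libraries left out. Against the immortalized mean, the collagen median was -1.14 in transformed replicate a and -1.11 in b. That of the other matrix proteins was -1.30 and -1.35. COL1A2, a chain of type I collagen, was at 2961 and 2984 TPM in the immortalized and 325 and 226 TPM in the transformed libraries, a log2 fold change of -3.45 ± 0.43 (SE, adjusted p = 8.94e-05). COL1A1, the other chain of that collagen, was at 1525 and 1444 TPM in the immortalized and 266 and 200.3 TPM in the transformed libraries (-2.68 ± 0.43), and COL6A3, of the pericellular type VI collagen, was at 899 and 688 TPM in the immortalized and 87.0 and 65.8 TPM in the transformed libraries. COL3A1 was lower too, at 408 and 379 TPM in the immortalized and 142 and 152 TPM in the transformed libraries, but with an adjusted p of 0.0196 it was not called in the fit over all 16 libraries. It was called without the metastasizing libraries at 3% oxygen (adjusted p = 7.29e-07) and in a fit of only the 4 libraries compared (adjusted p = 0.00105). The chains that rose were COL8A2 (0.925 and 0.809 to 9.76 and 9.10 TPM), COL4A4 (0.281 and 0.223 to 4.23 and 3.43 TPM), COL11A1 and COL8A1, the last at 53.8 and 52.7 TPM in the immortalized and 105 and 112 TPM in the transformed libraries. The calls of COL8A1 and COL11A1 ended with median-ratio rescaling, at 0.92 and 0.99. COL8A1 also lay below the 2-fold limit without transformed replicate b (0.97), and COL11A1 without transformed replicate a (0.71). The call of COL11A1 was lost too in the fit of only the 4 libraries (adjusted p = 0.0265) and without either immortalized library.

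Small proteoglycans and fibulins were among the matrix genes that fell. LUM, the proteoglycan lumican that spaces collagen fibrils, fell from 1777 and 1766 to 52.5 and 69.7 TPM, and DCN, its relative decorin, from 617 and 591 to 32.0 and 31.1 TPM. FBLN5, an elastic-fibre protein, fell from 123 and 135 to 3.83 and 3.26 TPM (-5.00 ± 0.21), and FBLN1 from 901 and 838 to 74.8 and 82.8 TPM. THBS1 (thrombospondin-1), FN1 (fibronectin) and SPARC fell by 3.35, 1.43 and 1.33 on the log2 scale. FBN1 and FBN2 went opposite ways: fibrillin-1 fell from 268 and 198 to 68.5 and 60.9 TPM while fibrillin-2 appeared. FBLN2 was at 40.0 and 31.9 TPM in the immortalized and 89.5 and 111 TPM in the transformed libraries (adjusted p = 0.00764), a call that was lost with the replicate block (adjusted p = 0.0171) and without any 1 of the 4 libraries, each of which left 1 matrix protein higher. VIM, the intermediate filament of mesenchymal cells, was at 3381 and 3288 TPM in the immortalized and 3367 and 2730.1 TPM in the transformed libraries and was not called.

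Enzymes acting on the matrix also fell more often than they rose, where 7.37% of all genes were called lower and 8.95% higher. Among 16 collagen- and elastin-modifying enzymes 4 fell and 1 rose: LOXL4, a lysyl oxidase that cross-links collagen, fell from 108 and 104 to 6.68 and 5.38 TPM, and PLOD1, which hydroxylates collagen lysines, from 439 and 417 to 142 and 141 TPM. ADAMTS2, which removes the amino-terminal propeptide of procollagen, rose from 8.79 and 9.52 to 23.1 and 20.2 TPM. Of 25 matrix proteases and inhibitors 10 fell and none rose, with 2 called higher without transformed replicate a (median -0.87). CTSK, the collagen-degrading cathepsin K, fell from 202 and 196 to 7.65 and 11.2 TPM, and TIMP3, a matrix-bound metalloproteinase inhibitor, from 755 and 747 to 129 and 134 TPM. MMP3, stromelysin, was at 50.0 and 56.5 TPM in the immortalized and 5.73 and 13.8 TPM in the transformed libraries. Proteases and their inhibitors therefore fell side by side, with TIMP1, MMP2, PLAU and PLAT among the called.

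Contractile and adhesion genes fell with no called rise among the first. Of 20 contractile and actin cytoskeleton genes 8 fell, against 7.37% of all genes (list median -0.72). ACTA2, the smooth muscle actin of myofibroblasts, was at 64.5 and 76.7 TPM in the immortalized and 5.58 and 7.06 TPM in the transformed libraries, a log2 fold change of -3.39 ± 0.38 (SE, adjusted p = 4.36e-05). TAGLN, the actin-binding protein transgelin, fell from 1350.3 and 1418 to 204 and 222 TPM, and SYNPO2 and LMOD1 fell to below 1 TPM. ACTG2, the enteric smooth muscle actin, fell from 73.4 and 73.7 to 9.82 and 11.0 TPM at 3% oxygen, while at atmospheric oxygen its step was 2.14, and the difference was -4.91 ± 0.26 (SE, adjusted p = 3.79e-06). Among 18 integrins and cadherins 7 fell and 2 rose, against 7.37% and 8.95% of all genes. ITGA2, a collagen-binding integrin subunit, fell from 106 and 84.3 to 2.18 and 3.90 TPM, and the laminin-binding ITGA7 rose from 6.17 and 6.81 to 31.8 and 34.7 TPM.

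**Figure D3:**
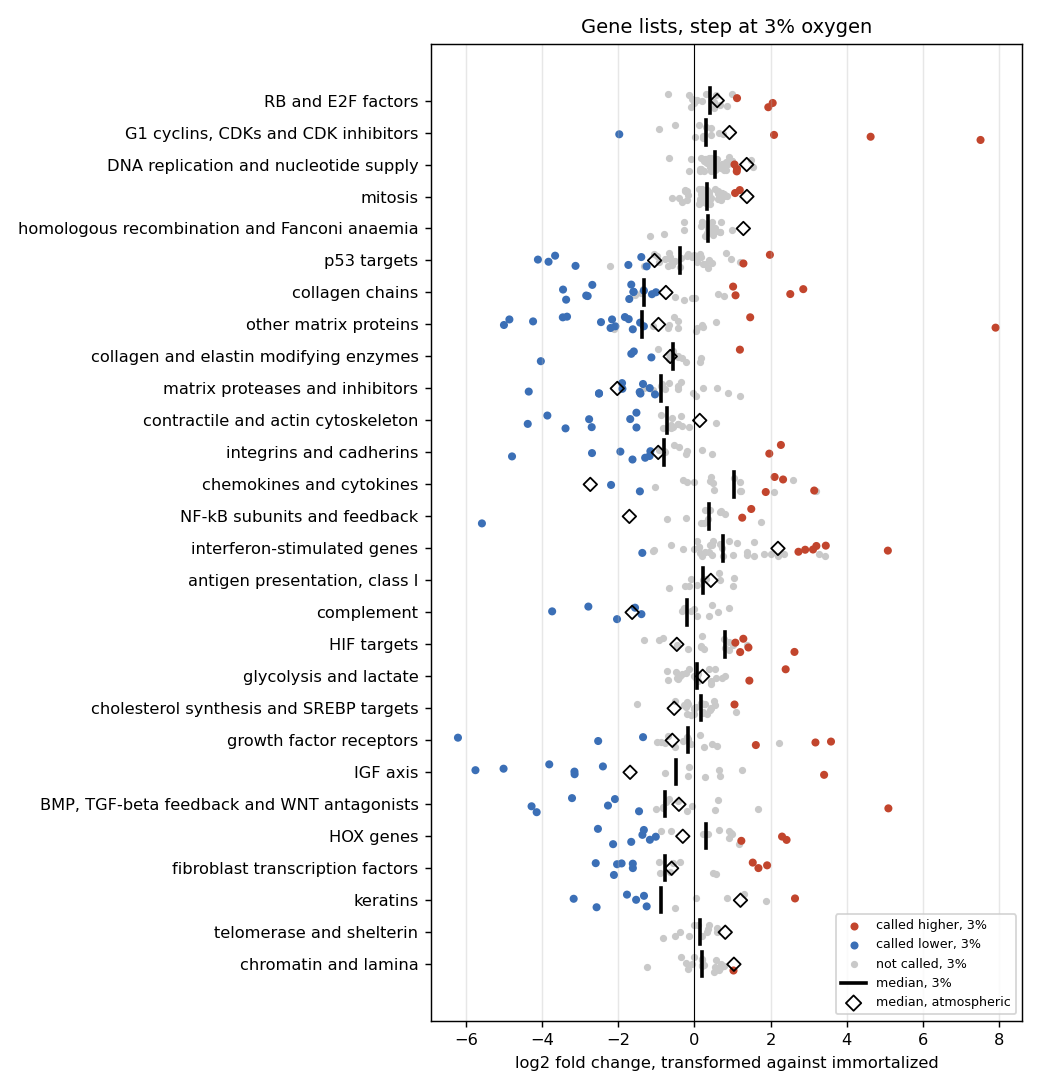
Log2 fold change (transformed minus immortalized at 3% oxygen) of every tested member of 28 gene lists, 1 point per gene (red called higher, blue called lower, grey not called), with the list median at 3% oxygen as a bar and at atmospheric oxygen as an open diamond. The collagen and other matrix lists have medians of -1.33 and -1.38. The chemokine, NF-kB and HIF target lists have medians on opposite sides of 0 at the 2 oxygen levels. So do the keratin (-0.89 at 3% and 1.21 at atmospheric oxygen), contractile (-0.72 and 0.14), HOX (0.30 and -0.30) and cholesterol synthesis (0.16 and -0.53) lists. At 3% oxygen the chemokine median was -0.10 in transformed replicate a and 2.08 in replicate b, and the NF-kB median 0.04 and 0.87.

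Of 14 genes of the insulin-like growth factor axis 6 fell, all of them IGF binding proteins, and 1 rose, against 7.37% and 8.95% of all genes. IGFBP5 was at 3011 and 3025 TPM in the immortalized and 90.8 and 95.2 TPM in the transformed libraries, with no overlap between the groups. IGFBP3 was at 878 and 909 TPM in the immortalized and 16.8 and 15.4 TPM in the transformed libraries, a log2 fold change of -5.75 ± 0.32 (SE, adjusted p = 2.35e-07). Its step at atmospheric oxygen was -0.87 from 128 and 122 TPM, and the difference of -4.88 ± 0.45 (SE, adjusted p = 5.19e-05) was called. IGFBP2, IGFBP4, IGFBP6 and IGFBP7 fell by 2.40 to 3.81 on the log2 scale. IGF2BP1, an oncofetal RNA-binding protein, rose from 1.18 and 0.387 to 14.3 and 10.8 TPM.

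Among 20 growth factor receptors 3 fell and 3 rose, against 7.37% and 8.95% of all genes, with PDGFRA described above. Without transformed replicate a 5 were called lower, and without replicate b 2 were. MET, the hepatocyte growth factor receptor, fell from 126 and 118 to 50.4 and 44.7 TPM, and IGF1R from 9.82 and 14.4 to 2.33 and 1.13 TPM, a call lost without immortalized or transformed replicate b. KIT, the stem cell factor receptor, rose from 1.81 and 1.69 to 24.5 and 16.1 TPM while its ligand gene KITLG fell. EPHB2, an ephrin receptor, rose from 0.341 and 0.717 to 12.4 and 11.0 TPM and ROR2, a WNT5A receptor, from 1.96 and 1.45 to 6.51 and 5.91 TPM. Of 18 genes of BMP and TGF-beta feedback and WNT antagonism 6 fell and 1 rose, against the same 7.37% and 8.95%. TGFB2 rose from 1.81 and 2.12 to 103 and 68.0 TPM as TGFB1 fell from 57.7 and 54.3 to 18.7 and 21.7 TPM. The BMP-induced inhibitors of differentiation ID1 and ID3 fell at 3% oxygen, ID1 from 59.9 and 51.9 to 2.62 and 2.74 TPM and ID3 from 161 and 150.2 to 7.46 and 7.63 TPM. At atmospheric oxygen both rose, ID3 from 18.0 and 31.8 to 186 and 168 TPM, and the difference of their steps was -6.53 ± 0.57 (SE, adjusted p = 3.99e-05) for ID1 and -7.14 ± 0.54 (SE, adjusted p = 1.64e-05) for ID3.

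Interferon-stimulated genes were called higher in 6 and lower in 1 of 39, against 8.95% and 7.37% of all genes, with a median of 0.76. OASL, an antiviral relative of the oligoadenylate synthetases, was at 0.413 and 0.342 TPM in the immortalized and 9.42 and 88.5 TPM in the transformed libraries. BST2, which tethers budding virus to the membrane, was at 6.35 and 4.597 TPM in the immortalized and 29.9 and 137 TPM in the transformed libraries, and MX1, a GTPase that blocks viral nucleocapsids, at 11.3 and 12.7 TPM in the immortalized and 32.5 and 401 TPM in the transformed libraries. In each of the 3 both transformed libraries lay above the immortalized ones, and replicate b lay far above replicate a. IFI27 was listed at 0 in both immortalized libraries and was at 1.65 and 8.23 TPM in the transformed ones. Without transformed replicate b the list had 6 called higher and 4 lower, where 7.06% and 5.83% of all genes were called. Without transformed replicate a it had 28 higher and 1 lower, against 8.19% and 7.13%. With either immortalized library left out it had 3 higher and 1 lower. The calls of MX1, OASL, BST2 and IFI27 ended when only the 4 libraries compared were fitted (adjusted p = 0.0812, 0.0174, 0.019 and 0.0218). The call of MX1 was also lost with the replicate block (adjusted p = 0.0143), without the trend (0.0105), with no filter (0.0133) and without immortalized replicate a (0.0413) or b (0.0352). IFITM2, an interferon-induced membrane protein, fell, from 176 and 174 to 59.2 and 77.0 TPM. At atmospheric oxygen 21 of the 39 were called higher and 1 lower (median 2.20), against 13.2% and 11.1% of all genes. The difference between the steps was called by limma in none of the 39, with 8 at an unadjusted p under 0.05. That count rested on transformed replicate b at 3% oxygen: without it the difference was called lower at 3% oxygen in 29 of the 39, against 4.32% of all genes, and without replicate a it was called higher in 2.

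Chemokines and cytokines had a median of 1.04, with 4 of 21 called higher and 2 lower, against 8.95% and 7.37% of all genes. CXCL2, a neutrophil attractant, was at 1.40 and 1.60 TPM in the immortalized and 8.96 and 32.7 TPM in the transformed libraries, and CXCL5 at 0.405 and 0.397 TPM in the immortalized and 2.07 and 5.37 TPM in the transformed libraries. CXCL8, interleukin-8, was at 98.0 and 73.3 TPM in the immortalized and 191 and 1385 TPM in the transformed libraries and missed the threshold (adjusted p = 0.0152). IL1B was at 36.6 and 28.1 TPM in the immortalized and 28.1 and 155 TPM in the transformed libraries (adjusted p = 0.278). Both libraries were above the immortalized range for CXCL8, and for IL1B only replicate b was. The calls of CXCL2 and CXCL5 were lost in the fit of only the 4 libraries compared (adjusted p = 0.015 and 0.0183). With replicate a left out 10 of the list were called higher and 2 lower, and with replicate b left out 2 higher and 4 lower. With either immortalized library left out 2 were called higher and 2 lower. CXCL12, a chemokine of stromal cells, was lower in both transformed libraries, at 449.7 and 411 TPM in the immortalized and 117 and 75.6 TPM in the transformed libraries, a log2 fold change of -2.19 ± 0.23 (SE, adjusted p = 2.60e-05). Of 14 NF-kB subunits and feedback genes ICAM1 (31.5 and 29.4 to 63.0 and 119 TPM) and NFKBIE (8.12 and 6.86 to 18.6 and 18.5 TPM) rose in the fit over all libraries, and PTGS2, the inducible cyclooxygenase, fell from 596 and 557 to 5.44 and 23.9 TPM. The call of NFKBIE was lost without any 1 of the 4 libraries (adjusted p = 0.0142 to 0.0316), and that of ICAM1 in the fit of only these 4 (0.0182). The list had 3 higher and 1 lower without transformed replicate a, and 1 higher and 1 lower without replicate b or either immortalized library. The class I antigen presentation list had no call by limma, with 2 at an unadjusted p under 0.05, but 2 of 11 were called higher without transformed replicate a and none without replicate b.

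At atmospheric oxygen 12 of 21 chemokines and cytokines fell and 1 rose (median -2.73), against 11.1% and 13.2% of all genes. At 3% oxygen the direction depended on the library, with a median of -0.10 in transformed replicate a and 2.08 in replicate b. The difference between the steps was called higher at 3% oxygen in 14 of 22, against 6.10% of all genes. It was called higher in 15 without transformed replicate a and 12 without replicate b at 3% oxygen, and in 7 to 11 without 1 of the other 6 libraries. The counts below 10 were 9 and 7 without immortalized replicates a and b at 3% oxygen, 8 without immortalized replicate a at atmospheric oxygen, and 9 and 8 without transformed replicates a and b there. The immortalized cells at atmospheric oxygen held the high levels: CXCL8 was at 3653 and 2324 TPM there, against 98.0 and 73.3 TPM at 3% oxygen. SOD2, the mitochondrial superoxide dismutase and an NF-kB target, was at 179 and 153 TPM in the immortalized and 157 and 533 TPM in the transformed libraries at 3% oxygen and at 2208 and 1780.0 TPM in immortalized cells at atmospheric oxygen. The difference was 9.11 ± 1.06 (SE, adjusted p = 0.000155) for CXCL8 and 5.54 ± 0.64 (SE, adjusted p = 0.000157) for SOD2. Complement genes were called lower at both oxygen levels, 5 of 14 at 3%, against 7.37% of all genes. At atmospheric oxygen 10 of 12 fell, against 11.1% of all genes, and 1 rose. C3, the central component, fell from 120.3 and 117 to 7.38 and 37.5 TPM, a call lost in the fit of only the 4 libraries compared (adjusted p = 0.0354).

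Of 20 HIF targets 5 were called higher at 3% oxygen and none lower, against 8.95% and 7.37% of all genes (median 0.80). The count was 2 and 3 without immortalized replicates a and b, and 3 and 4 without transformed replicates a and b. DDIT4, an inhibitor of mTORC1 induced by hypoxia, rose from 17.4 and 15.5 to 123 and 88.8 TPM, a log2 fold change of 2.63 ± 0.46 (SE, adjusted p = 0.000931). VEGFA, the angiogenic growth factor, rose from 62.5 and 66.8 to 161 and 138 TPM, and STC2 from 71.7 and 67.5 to 193 and 181 TPM, with MXI1 and INSIG2 the other 2. The calls of VEGFA and STC2 were lost without immortalized replicate a (adjusted p = 0.0141 and 0.0101) and without transformed replicate a (0.0139 and 0.0113), and that of STC2 also without immortalized replicate b (0.0137). At atmospheric oxygen 8 of 19 fell and none rose, against 11.1% and 13.2% of all genes. The difference was called higher in 7 of 20, against 6.10% of all genes. CA9, the carbonic anhydrase often used as a hypoxia marker, did not follow: it was at 82.8 and 75.9 TPM in the immortalized and 44.03 and 45.5 TPM in the transformed libraries (adjusted p = 0.188). HIF1A was at 281 and 269 TPM in the immortalized and 436 and 348 TPM in the transformed libraries (0.50, below the 2-fold limit). Of 24 genes of glycolysis and lactate 2 rose and none fell, against 8.95% and 7.37% of all genes. ENO2, the neuronal enolase, rose from 22.1 and 22.4 to 123 and 116 TPM. PFKP, the platelet phosphofructokinase, rose from 106 and 112 to 303 and 292 TPM.

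Several metabolic genes that changed strongly at atmospheric oxygen were not called at 3%. ASS1, which makes argininosuccinate, was at 228 and 211 TPM in the immortalized and 219 and 213 TPM in the transformed libraries at 3% oxygen (-0.03 ± 0.29), whereas its step at atmospheric oxygen was -4.76 and the difference was 4.74 ± 0.41 (SE, adjusted p = 3.83e-05). SCD, which desaturates fatty acids, was at 209.6 and 223 TPM in the immortalized and 217 and 158 TPM in the transformed libraries, with a step of -3.03 at atmospheric oxygen. AKR1B1, aldose reductase, was at 567 and 525 TPM in the immortalized and 760.0 and 1552 TPM in the transformed libraries and just missed both thresholds (0.99, adjusted p = 0.0116). Of 25 cholesterol synthesis and SREBP target genes only IDI1 was called at 3% oxygen (30.6 and 29.1 to 57.9 and 67.4 TPM), where 16.3% of all genes were. At atmospheric oxygen 10 fell, against 11.1% of all genes, and 5 had a called difference, against 11.9%. The call of IDI1 was lost with median-ratio rescaling (0.96) and without immortalized replicate a, immortalized replicate b or transformed replicate b (adjusted p = 0.0151, 0.0204 and 0.0241).

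Genes of positional and cell identity changed in both directions. Of 20 tested HOX genes 7 fell and 3 rose, against 7.37% and 8.95% of all genes, and 4 were called lower without transformed replicate b. HOXA9 fell from 51.2 and 47.9 to 10.3 and 11.5 TPM and HOXD10 from 15.0 and 12.7 to 1.91 and 2.04 TPM, whereas HOXC8 went from 0.0395 and 0.0545 to 2.54 and 2.32 TPM and HOXD13 from 0.0930 and 0.200 to 2.61 and 2.75 TPM. By limma none of the 21 HOX genes tested for it had a called difference between the oxygen levels, with 4 at an unadjusted p under 0.05. Among 16 transcription factors of fibroblasts and mesenchyme 6 fell and 3 rose, against the same 7.37% and 8.95% of all genes. With 1 library left out 1 to 3 were called lower, 1 without transformed or immortalized replicate a, 2 without immortalized and 3 without transformed replicate b. PRRX1, a mesenchymal homeobox factor, fell from 125 and 109.6 to 15.7 and 22.96 TPM, a call kept without transformed replicate b but not without any 1 of the other 3 libraries, and TWIST1 rose from 13.9 and 12.7 to 47.1 and 56.2 TPM. The related repressors ZEB1 and ZEB2 went opposite ways, ZEB1 falling from 44.7 and 42.2 to 14.0 and 8.93 TPM and ZEB2 rising from 25.3 and 23.1 to 73.8 and 68.2 TPM. Of 12 keratins 6 fell and 1 rose, against the same shares. KRT7 rose from 10.9 and 7.35 to 63.7 and 53.7 TPM. KRT81, a hair keratin, fell from 43.4 and 35.1 to 4.19 and 3.6 TPM, against a step of 2.84 at atmospheric oxygen. SUZ12, a core subunit of the Polycomb repressor PRC2, was the one call among 19 chromatin and lamina genes (41.3 and 37.5 to 81.8 and 77.6 TPM), and its change was 0.91 with median-ratio rescaling, its call also being lost with quantile normalization, with a pseudocount of 1, without immortalized replicate b and without transformed replicate a. None of 12 telomerase and shelterin genes was called by limma, with 6 at an unadjusted p under 0.05.

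The changes were unevenly spread over the chromosomes, a pattern looked for after the values were seen. On the short arm of chromosome 10 the median log2 fold change of 108 tested genes was 0.89, with 44 called higher and 5 lower, and on the long arm of chromosome 20 it was 0.66 over 222 genes, with 60 higher and 10 lower. The long arm of chromosome 10 was at -0.37 over 368 genes, with 21 higher and 57 lower. The corresponding medians at atmospheric oxygen, in 4 other libraries, were 0.76, 0.67 and -0.25. The lowest and highest of the 4 pairings of a transformed with an immortalized library were 0.85 and 0.90 for 10p, 0.64 and 0.70 for 20q, and -0.41 and -0.31 for 10q, and replicates of 1 group differed by at most 0.0779 on these arms. Among the other arms the medians lay between -0.22 on 4q and 0.42 on 19p.

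Levels at the neighbouring stages locate these shifts. Relative to primary cells at 3% oxygen, immortalized cells were at -0.79 on 10p and 0.43 on 10q, and transformed cells at -0.05 and 0.07. On 20q immortalized cells were at -0.10 and transformed cells at 0.57, and metastasizing cells were at 0.63 at 3% and 0.23 at atmospheric oxygen. In windows of 10 megabases, the last window of chromosome 20 had a median of 1.24 over 42 genes, 41 of them above 0, and the second window of chromosome 10 had 1.17 over 36 genes. A window of chromosome 19 from 20 to 30 megabases, with 24 zinc-finger genes among its 26, had a median of 1.002. Of the 8 called genes of the RB and E2F, replication, mitosis and recombination lists, 4 lie on 10p or 20q. They are MCM10 on 10p and E2F1, MYBL2 and UBE2C on 20q. Of the 137 tested genes of these lists 7 lie on these 2 arms. The other 3 of the 7 were RBL1, TPX2 and AURKA. The median of those 7 was 1.055 and that of the other 130 was 0.40. The 2 arms were picked for their high medians in these same libraries, so higher values of genes on them follow in part from that choice. DNA copy number and its part in these medians were not tested.

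**Figure D4:**
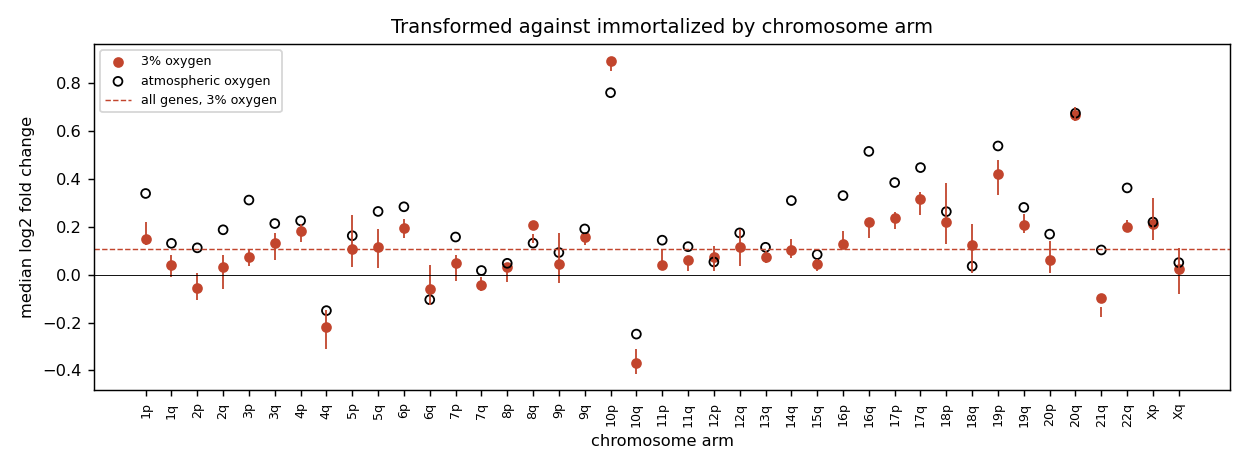
Median log2 fold change (transformed minus immortalized) of the tested genes on each chromosome arm, at 3% oxygen (filled red, with a line from the lowest to the highest of the 4 pairings of single libraries) and at atmospheric oxygen (open). The dashed line is the median of all genes at 3% oxygen. The arms 10p at 0.89 and 20q at 0.66 lie above the others at 3% oxygen, and 10q at -0.37 lies lowest.

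Over the whole transcriptome the step at 3% oxygen shared its direction with the step at atmospheric oxygen in most genes called at both. Of the 2024 genes called at 3% oxygen 1107 (54.7%) were among the 3012 called at atmospheric oxygen (24.3% of 12387 genes tested, of which 82.7% had groups that did not overlap), which is 36.8% of the latter, and 1060 of the 1107 (95.8%) changed the same way. Across 12068 genes tested at both levels Pearson's r of the fold changes was 0.63 and Spearman's rho 0.49, as a description over genes, which are not independent replicates, from libraries that share none. A called difference between the steps was found in 1516 of 12715 genes (11.9%), 775 higher and 741 lower at 3% oxygen. With median-ratio rescaling the split was 936 higher and 514 lower, and that of the atmospheric step was 1087 higher and 1739 lower in place of 1631 and 1381. Of the 917 genes called at 3% oxygen alone, 286 had a called difference, so for most of the 917 the 2 steps were not shown to differ. Of the 1905 called at atmospheric oxygen alone, 691 had one.

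**Figure D5:**
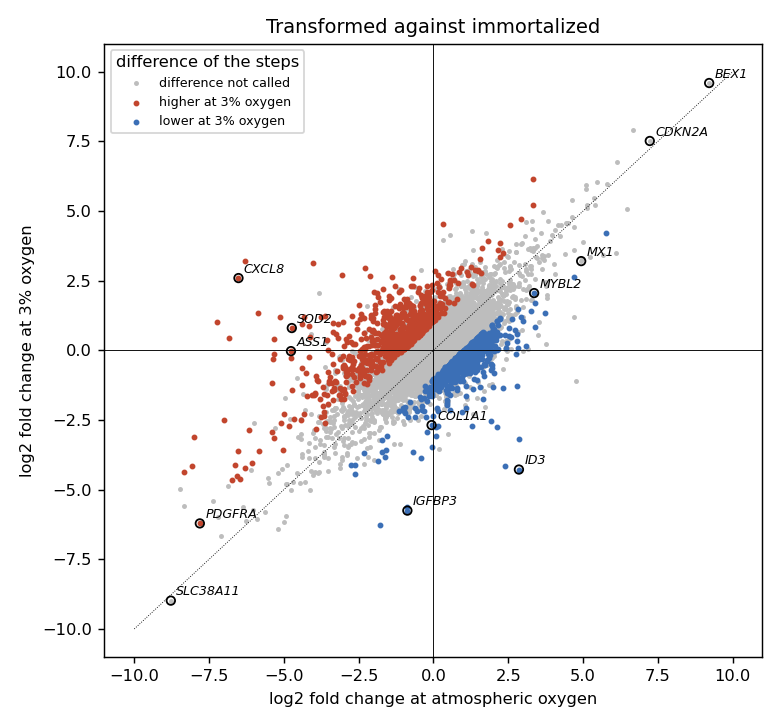
Log2 fold change of the step at atmospheric oxygen (horizontal) against 3% oxygen (vertical), 1 point per gene tested at both levels, coloured where the difference of the steps was called (red higher, blue lower at 3% oxygen), with the dotted line where both are equal. BEX1, CDKN2A and SLC38A11 lie near that line, CXCL8 at -6.52 and 2.60 and ID3 at 2.86 and -4.28 lie on opposite sides of 0, and IGFBP3 changed mainly at 3% oxygen.

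Transcript composition changed in few of the genes picked for naming. Of 108 genes with at least 1 TPM in both groups, the leading transcript differed between the 2 immortalized and the 2 transformed libraries in 5: CA9, ID3, IGFBP7, COL15A1 and SOD2. In transformed replicate a the lead was narrow in SOD2 (41.8% against 41.2%), CA9 (49.2% against 47.6%) and IGFBP7 (49.0% against 47.3%). In COL15A1 the coding transcript COL15A1-201 held 88.0% and 70.0% of the gene's TPM in the immortalized libraries and 33.4% and 26.5% in the transformed ones. There the retained-intron transcript COL15A1-204 led with 66.6% and 73.5%, at a gene level of 1.67 and 2.27 TPM. In ID3 the coding transcript ID3-201 held 46.5% and 39.8% of the gene's TPM in immortalized and 60.5% and 59.9% in transformed cells.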

How the data were processed

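RNA sequencing of 16 libraries (8 groups of 2) was analysed, of which 4 form the comparison. The TPM values were deposited by the authors, who quantified reads with kallisto 0.42.1 against GRCh37 per the labels. Sequencing depth is unknown, so no counting error is given. Of 180253 transcripts, 151453 were matched to GENCODE 44 on GRCh37 and summed over 19356 protein-coding genes. The 28800 others were not used. Genes averaging 1 TPM or more in one of the groups were compared on log2(TPM + 0.5) with limma 3.58.1 (R 4.3.3), fitted with an intensity trend over all 16 libraries. Calls needed a Benjamini-Hochberg adjusted p under 0.01 and a change over 2-fold. With 2 libraries against 2, an exact permutation test cannot go below p = 0.333. On simulated data 176 of 200 changed genes were called, and none of the unchanged ones among 12383 tested. The sizes planted there were 1.5, 2 and 3 on the log2 scale, and smaller ones were not tested. How often calls in the real libraries are wrong or missed was not tested.

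The 12 largest changes each way, up to 4 called members of each list each way, and genes defining the pathways were named, except a few that are not reported here. The comparison and the 28 lists were chosen with earlier results of these data known. Promoters came from RefSeq (GRCh38.p14). Alternatives covered the pseudocount, filter, scaling, libraries fitted, replicate block, trend, threshold and gene set.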

Additional observations from a re-analysis of the deposited data

Results flagged for a closer look

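The step differed between 3% and atmospheric oxygen, by the test of the difference itself, in 1516 of 12715 genes. Among them were 48 of the 152 genes picked by the naming rule (32 higher and 16 lower at 3% oxygen). Of the 48, 44 were also called with the replicate letter as a block. Each value below is the log2 fold change at 3% oxygen minus that at atmospheric oxygen, and all come from the same 8 libraries.

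The differences of secreted inflammatory proteins were CSF3 9.49, CXCL8 9.11, IL1B 8.26, CSF2 7.28, CXCL2 7.17, TSLP 3.28 and CXCL5 2.64. NF-kB targets and feedback genes gave SOD2 5.54, ICAM1 3.44 and NFKBIE 1.74. In the chemokines and cytokines, transformed replicate b at 3% oxygen was above replicate a, as described for that list. Hypoxia and glycolysis genes gave DDIT4 4.00, MXI1 3.38, STC2 3.08, VEGFA 2.67 and ENO2 1.12. Matrix, protease and adhesion genes gave MMP3 4.50, CTSK 3.97, COL8A2 2.81, COL4A4 2.32, ITGB8 2.08, DCN 2.05 and LOXL4 2.04, and metabolic enzymes gave ASS1 4.74, AKR1B1 4.36 and SCD 2.81. The remaining genes with a higher step at 3% oxygen were ANXA3 2.83, SESN2 2.39, CDKN1C 2.29, PDGFRA 1.60, PMAIP1 1.29, RBL2 1.21 and ZEB2 1.15.

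Among genes with a lower step at 3% oxygen, the inhibitors of differentiation gave ID3 -7.14 and ID1 -6.53. Keratins gave KRT81 -6.02, KRT7 -2.05 and KRT16 -1.93. Contractile, matrix and other secreted-protein genes, with C5orf46, gave ACTG2 -4.91, COL1A1 -2.62, CXCL12 -2.34 and C5orf46 -4.49. Genes of growth factor signalling gave IGFBP3 -4.88, MET -1.92 and KITLG -1.94, and genes of proliferation and of p53-dependent death gave MCM10 -1.93, MYBL2 -1.31, AURKB -1.07 and PERP -1.34. What lies behind these differences was not tested.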

How the results depend on the processing

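Of 132 called genes picked by the naming rule, 21 lost their call under some alternative other than leaving out a library, and none changed direction. Calls were also lost with a library left out. Other called genes given in the text were not checked singly. The step at 3% oxygen had 2024 calls, 1499 to 1903 with 1 library left out (786 to 1017 higher, 713 to 886 lower), where the lone library is assumed to vary like the other groups, 1731 in a fit of only the 4 libraries (1609 shared), 1525 at 5 TPM or more and 2182 without the metastasizing libraries at 3% oxygen. At atmospheric oxygen calls ranged from 2513 to 2748 with a library left out (1322 to 1538 higher, 1166 to 1210 lower), and median-ratio rescaling gave 1087 higher. The difference of the steps had 987 to 1452 calls with a library left out (495 to 675 higher, 483 to 777 lower).

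With the replicate letter as a block, calls numbered 1936 at 3% oxygen (1052 higher, 884 lower), 2915 at atmospheric oxygen and 1285 for the difference. Deviations of same-letter libraries correlated at 0.112 at 3% and -0.169 at atmospheric oxygen across genes, and the labels tie the letters to nothing shared. Some of the largest replicate gaps at 3% oxygen did recur. ENSG00000261717, C1orf134, MTARC2, C6orf136 and RAB11FIP4 were far higher in replicate a of both groups. MTARC2 was at 300 and 8.70 TPM in the immortalized and 705 and 16.1 TPM in the transformed libraries. The remaining genes with such gaps were listed for a single group. Changes of 7 uncalled genes crossed 0 with a library left out, with ranges of -0.45 to 0.009 for SCD, -0.29 to 0.0142 for VIM, -0.0808 to 0.0287 for ASS1, -0.18 to 0.31 for STYK1, -1.30 to 2.18 for CSF2, -0.0795 to 1.68 for SOD2 and -0.19 to 2.26 for IL1B. The library that reversed the direction was transformed replicate b for 5 of them and immortalized replicate a for ASS1 and STYK1. ASS1 was also reversed by quantile normalization (0.0747), and STYK1 by median-ratio rescaling (-0.0159) and quantile normalization (-0.127). Of 476 list results under alternatives 38 moved by over 1.5 times. The causes were not tested. Low genes are limited by the unknown depth.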
